A study of Homo sapiens with 6 samples.

Results

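SNHG1, SNHG3, SNHG5, SNHG6, SNHG7, SNHG8, SNHG12, SNHG15, SNHG16 and GAS5 are long non-coding genes whose introns carry small nucleolar RNAs (snoRNAs). The rows of these symbols were taken from a table of raw gene counts of MDA-MB-231 cells, and they make up 10 of its 58395 genes and 10 of the 23806 genes with enough reads for a test. MDA-MB-231 is an invasive cell line derived from a human breast adenocarcinoma. By the sample labels RNA was collected 65 h after transfection, while the methods of the study give a slightly later time for its siRNA transfections. There were 3 libraries from cells given a non-targeting siRNA (siCTR). Another 3 came from cells given an siRNA against CSRP2, the gene that encodes the actin-binding protein CRP2 (siCRP2). The comparison asks how the RNA of the host genes differed after CRP2 was depleted. One siRNA (siCRP2#a) was used for the depletion, so the loss of CRP2 and other effects of that siRNA cannot be told apart. The study describes the libraries of a group as biological replicates. The edgeR p-values without pairing rest on the spread between them, which the test shares in part across genes. The column names join the libraries into 3 pairs, each of 1 siCTR and 1 siCRP2 library with a code in common: pair A (siCTR0412 and siCRP20412), pair B (siCTR0611 and siCRP20611) and pair C (siCTR1311 and siCRP21311). Where the libraries are said to be paired, the intervals and p-values rest on a spread pooled across genes. A gene's own spread between the pairs hardly enters there. Values of a group are listed in the order A, B, C.

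A snoRNA host gene is transcribed as 1 precursor, and its snoRNAs are trimmed out of the introns once the exons have been joined. Box C/D snoRNAs guide 2'-O-methylation and box H/ACA snoRNAs guide pseudouridylation, mostly of ribosomal RNA, while a few act in the cleavage of its precursor. The spliced RNA that is left holds no long reading frame in most hosts and is often degraded by nonsense-mediated decay when ribosomes engage it. Many hosts start with a run of pyrimidines, the 5' terminal oligopyrimidine (5' TOP) motif that they share with ribosomal protein mRNAs and that ties an RNA to growth signalling through mTOR.

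Library totals lay between 17336798 and 39115778 counts, and a host gene had between 154 counts (SNHG12, in an siCRP2 library) and 4194 counts (GAS5, also in an siCRP2 library). Values are given in CPM, that is, counts scaled to the library total and its TMM factor. CSRP2 itself had 1.95 ± 0.198 CPM in siCRP2 libraries and 12.3 ± 1.28 CPM in siCTR libraries (mean ± SD, n = 3 libraries each, as throughout), a log2 fold change of -2.66 (edgeR adjusted p = 2.4e-08). The line's markers VIM, CD44, KRT8 and KRT18 stood at 661 to 1782 CPM, and none of these 4 passed the test. Of the 6 luminal or epithelial markers, PGR was at 0 in all libraries, ESR1 averaged at most 0.0418 CPM, and ERBB2 (89.0 and 90.4 CPM in siCRP2 and siCTR libraries), EPCAM (24.3 and 31.4 CPM) and GATA3 (13.99 and 14.8 CPM) were present without passing the test, while CDH1, which encodes E-cadherin, rose from 17.4 to 33.2 CPM (edgeR adjusted p = 0.000652). Among markers of leukocytes, endothelium and fibroblasts, CD3E, DCN, CD68 and CDH5 averaged at most 0.161 CPM, and PTPRC and VWF at most 0.434 CPM. PDGFRB (19.9 to 5.99 CPM, edgeR adjusted p = 1.99e-07) and PECAM1 (15.6 to 5.62 CPM, edgeR adjusted p = 0.00989) were lower in siCRP2 libraries. With the libraries paired, CD44 (edgeR adjusted p = 0.0139) and EPCAM (edgeR adjusted p = 0.000135) passed as lower as well. The part of these marker differences in the values below was not tested, and in bulk RNA fewer cells of a kind and less RNA per cell cannot be told apart.

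The region around the start of SNHG1 and SNHG3 is shown first, since these are the host genes that passed the test without pairing. The 300 bases run from 250 bases before to 50 bases after the start that RefSeq gives on GRCh38.p14, at chr11:62855836-62856135 on the minus strand for SNHG1 and at chr1:28505693-28505992 on the plus strand for SNHG3. Both are written 5' to 3' on the strand of the host, and the capitals mark the longest unbroken run of C and T that begins within 10 bases of the start.
SNHG1: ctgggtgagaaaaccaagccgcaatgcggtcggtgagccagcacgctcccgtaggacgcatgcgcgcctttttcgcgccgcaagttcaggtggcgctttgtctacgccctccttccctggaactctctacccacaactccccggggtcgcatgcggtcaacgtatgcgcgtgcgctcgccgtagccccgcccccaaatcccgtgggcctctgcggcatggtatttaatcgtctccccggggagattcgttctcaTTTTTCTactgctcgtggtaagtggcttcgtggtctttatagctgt
SNHG3: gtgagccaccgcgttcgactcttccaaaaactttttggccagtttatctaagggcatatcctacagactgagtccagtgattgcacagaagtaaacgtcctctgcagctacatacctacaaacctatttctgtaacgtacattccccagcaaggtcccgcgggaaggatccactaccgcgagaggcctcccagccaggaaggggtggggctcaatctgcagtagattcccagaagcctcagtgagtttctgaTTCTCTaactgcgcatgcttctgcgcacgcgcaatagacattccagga
In SNHG1 the run has 7 bases and in SNHG3 it has 6. The RefSeq start used for SNHG3 lies 37 bases from the GENCODE start of SNHG3. It is the same base as the GENCODE start of RCC1, a neighbour on the same strand, so the window is that of the RCC1 start as well.

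Shorter windows of 60 bases, 30 on either side of the RefSeq start, are shown for the other hosts with a RefSeq promoter, so that the starts can be read against each other. They lie at chr6:85678704-85678763 (SNHG5, minus strand), chr9:136728155-136728214 (SNHG7, minus), chr4:118278732-118278791 (SNHG8, plus), chr1:28581844-28581903 (SNHG12, minus), chr17:76557734-76557793 (SNHG16, plus) and chr1:173869016-173869075 (GAS5, minus), with the same use of capitals.
SNHG5: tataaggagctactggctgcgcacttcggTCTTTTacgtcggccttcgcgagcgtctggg
SNHG7: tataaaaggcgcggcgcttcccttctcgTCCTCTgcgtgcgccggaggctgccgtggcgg
SNHG8: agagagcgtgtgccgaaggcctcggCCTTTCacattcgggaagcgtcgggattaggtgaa
SNHG12: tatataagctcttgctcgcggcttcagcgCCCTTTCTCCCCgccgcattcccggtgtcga
SNHG16: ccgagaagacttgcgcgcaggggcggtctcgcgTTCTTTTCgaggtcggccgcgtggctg
GAS5: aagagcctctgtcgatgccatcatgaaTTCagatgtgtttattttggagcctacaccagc
A run of at least 6 C or T that begins within 10 bases of the start, searched on the strand of the gene, was present in 7 of the 8 hosts and in 24.7% of 35116 RefSeq promoters. The exception was GAS5, with 3 bases at a RefSeq start that lies 163 bases from the GENCODE 5' end, where the run was not searched. The RefSeq start lies between 0 bases (SNHG7) and 1259 bases (SNHG12) from the 5' end that GENCODE gives to the gene, so the run at one annotated start says nothing of other starts of the same gene. Like that of SNHG3, the RefSeq start used for SNHG5 is the GENCODE start of another gene on the same strand (ENSG00000271793). Over the whole 300 bases and both strands, CACGTG, the palindromic E-box that MYC and its relatives can bind, was found in SNHG7 and not in the other 7, against 7.26% of all promoters. The CArG box, the motif of serum response factor, was found in 0 of the 8 windows and in 1.29% of all promoters, which says only that these letters are not in these windows.

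Of the 10 host genes, SNHG1 rose, SNHG3 fell and the other 8 did not pass the test (edgeR quasi-likelihood test, adjusted p under 0.05 over all genes tested). Among all 23806 genes, 12.5% were higher and 11.5% were lower by the same rule. The hosts' 1 of 10 in each direction is close to these shares. The genes tested include many of lower level. In siCTR libraries the hosts' mean CPM exceeded that of 60.4% (SNHG12) to 90.6% (SNHG5) of them. The share called among genes of like level was not computed. The median log2 fold change of the hosts was -0.02, and that of all genes tested was also -0.02. All 3 siCRP2 libraries lay on one side of all 3 siCTR libraries for 4 hosts (SNHG1, SNHG3, SNHG6 and SNHG8), beside 37.4% of all genes. Added up, the 10 hosts held 472 ± 25.3 CPM in siCRP2 libraries and 457 ± 9.41 CPM in siCTR libraries, which was 0.0449% to 0.0491% of the counts of a library.

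**Figure D1:**
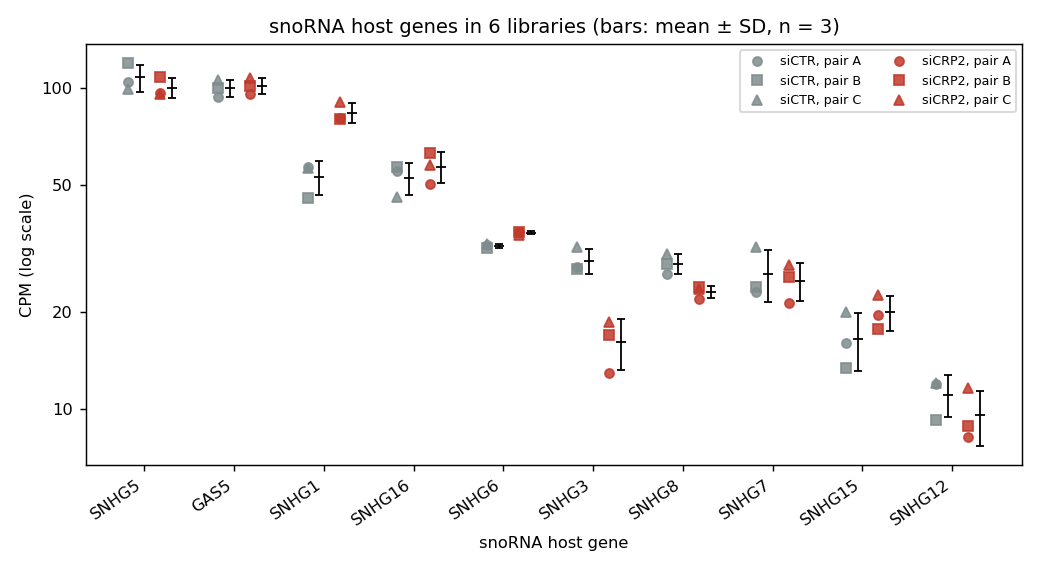
Level of each snoRNA host gene in the 6 libraries, in CPM on a log scale, with siCTR in grey and siCRP2 in red, the pair of the library as the shape of the point, and the mean ± SD (n = 3) as a bar beside the points. SNHG1 is the host whose red points (80.1 to 90.8 CPM) lie well above the grey ones (45.3 to 57.0 CPM), and SNHG3 the one whose red points (12.96 to 18.6 CPM) lie well below (27.4 to 32.0 CPM).

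Box C/D snoRNAs are carried by SNHG1, GAS5, SNHG5, SNHG16 and SNHG6. SNHG1 (ENSG00000255717, chr11:62851978-62855953, minus strand) had 80.9, 80.1 and 90.8 CPM in the siCRP2 libraries of pairs A, B and C, and 57.0, 45.3 and 56.4 CPM in the siCTR libraries. The groups did not overlap, and the lowest siCRP2 library exceeded the highest siCTR library. The means were 83.9 ± 5.96 and 52.9 ± 6.57 CPM. SNHG1 was thus 1.59-fold higher in siCRP2 libraries, with a 95% interval of 1.37 to 1.84 (log2 fold change 0.67, SE 0.102, edgeR adjusted p = 0.000126).

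GAS5 (ENSG00000234741, chr1:173858559-173868882, minus strand), named for its rise in growth-arrested cells and known to bind the glucocorticoid receptor, carries box C/D snoRNAs as well. Its values were 96.1, 102 and 107 CPM in siCRP2 libraries and 94.0, 100.3 and 106 CPM in siCTR libraries. Here the groups overlapped almost fully, and the library of pair C was the highest in both. The log2 fold change was 0.02 with a 95% interval of -0.16 to 0.20 (edgeR adjusted p = 0.888). This interval is the narrowest of the 10.

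SNHG5 (ENSG00000203875, chr6:85650491-85678932, minus strand), the host of SNORD50B, had 96.5, 108 and 96.1 CPM in siCRP2 libraries and 105, 120 and 99.8 CPM in siCTR libraries. Each siCRP2 library lay below the siCTR library of its pair, while the groups as wholes overlapped. The log2 fold change was -0.11 with an interval of -0.30 to 0.09 (edgeR adjusted p = 0.455). SNHG16 (ENSG00000163597, chr17:76557727-76670985, plus strand), the host of the SNORD1 snoRNAs, had 50.4, 62.7 and 57.7 CPM against 55.2, 56.8 and 45.7 CPM. Its groups also overlapped, and the siCRP2 library of pair A lay below its siCTR partner while the other two lay above theirs. The log2 fold change of SNHG16 was 0.12 with an interval of -0.11 to 0.35 (edgeR adjusted p = 0.492).

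The remaining box C/D host, SNHG6 (ENSG00000245910, chr8:66920561-66926398, minus strand), carries SNORD87. It had 35.7, 35.7 and 34.9 CPM in siCRP2 libraries and 32.5, 31.8 and 32.7 CPM in siCTR libraries. Every siCRP2 library lay above every siCTR library, with an SD of 0.459 and 0.456 CPM, the smallest among the 10 hosts. The difference was small, a log2 fold change of 0.13 with an interval of -0.07 to 0.34, and it did not pass the test (edgeR adjusted p = 0.364), which uses a spread shared with genes of like level and not these SDs alone.

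Box H/ACA snoRNAs are carried by SNHG3, SNHG8, SNHG15 and SNHG7. SNHG3 (ENSG00000242125, chr1:28505980-28510892, plus strand) holds SNORA73A and SNORA73B, snoRNAs that act in the cleavage of the ribosomal RNA precursor. It had 12.96, 16.9 and 18.6 CPM in siCRP2 libraries and 27.7, 27.4 and 32.0 CPM in siCTR libraries. The groups did not overlap, and the highest siCRP2 library stayed below the lowest siCTR library. The means were 16.2 ± 2.91 and 29.0 ± 2.58 CPM. SNHG3 fell to 0.560 of the siCTR level, with a 95% interval of 0.459 to 0.684 (log2 fold change -0.84, SE 0.136, edgeR adjusted p = 0.000225).

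SNHG8 (ENSG00000269893, chr4:118278703-118285316, plus strand), the host of SNORA24, had 21.95, 23.9 and 23.6 CPM in siCRP2 libraries and 26.4, 28.3 and 30.4 CPM in siCTR libraries. The groups did not overlap. The log2 fold change was -0.29 with an interval of -0.52 to -0.06, and the edgeR adjusted p was 0.0650. With the libraries paired it was again -0.29, and SNHG8 passed (edgeR adjusted p = 0.00258). It also passed without the siCTR library of pair A (-0.34, edgeR adjusted p = 0.0373), and without any other 1 library it did not (-0.35 to -0.24, edgeR adjusted p up to 0.183).

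SNHG15 (ENSG00000232956, chr7:44983019-44986961, minus strand), the host of SNORA9, had 19.6, 17.8 and 22.7 CPM in siCRP2 libraries and 16.1, 13.4 and 20.04 CPM in siCTR libraries. The groups overlapped, but each siCRP2 library exceeded the siCTR library of its pair. The log2 fold change was 0.28 with an interval of -0.04 to 0.59 (edgeR adjusted p = 0.203). With the libraries paired, it was 0.28 with an interval of 0.09 to 0.47, and SNHG15 passed (edgeR adjusted p = 0.0103). Unpaired, the value rested on single libraries. It was 0.44 without the siCTR library of pair C, where SNHG15 passed (edgeR adjusted p = 0.0344), but 0.15 without the siCRP2 library of pair C (edgeR adjusted p = 0.612) and 0.15 without the siCTR library of pair B (edgeR adjusted p = 0.560).

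SNHG7 (ENSG00000233016, chr9:136721366-136728184, minus strand), the host of the SNORA17 snoRNAs, had 21.4, 25.9 and 28.2 CPM against 23.2, 24.0 and 32.0 CPM. The groups overlapped, and the log2 fold change was -0.07 with an interval of -0.37 to 0.23 (edgeR adjusted p = 0.785). SNHG12 (ENSG00000197989, chr1:28578538-28583132, minus strand) carries snoRNAs of both classes. It had 8.15, 8.82 and 11.6 CPM in siCRP2 libraries and 11.97, 9.20 and 12.1 CPM in siCTR libraries, and these groups overlapped too. Its log2 fold change was -0.21 with an interval of -0.56 to 0.14, the widest of the 10 (edgeR adjusted p = 0.411).

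**Figure D2:**
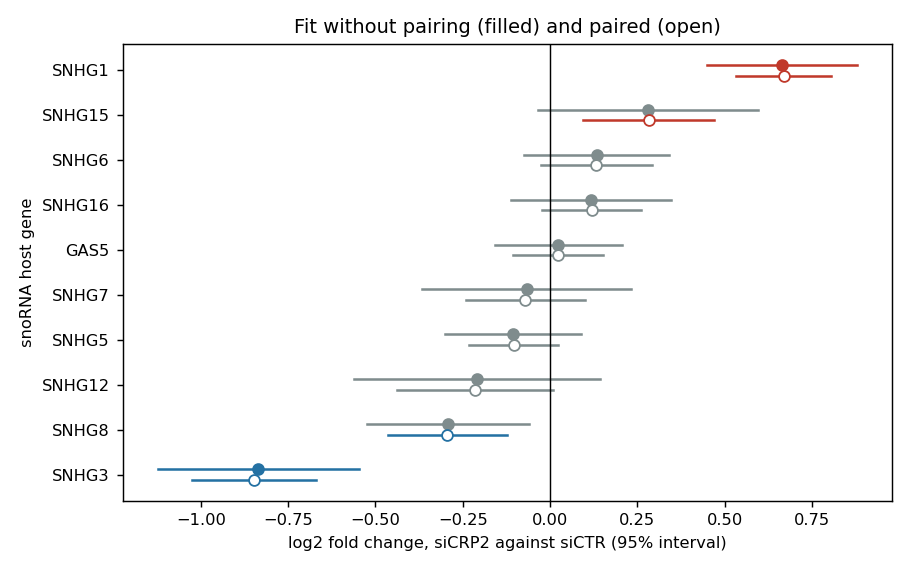
Log2 fold change of each snoRNA host gene, siCRP2 against siCTR, with its 95% interval, in the fit without pairing (filled) and in the fit with the libraries paired (open), in red or blue where the gene passed as higher or lower. SNHG1 and SNHG3 are coloured in both fits, and SNHG8 and SNHG15 are coloured in the paired fit.

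The libraries of a pair deviated together from their group means, so the difference within each pair was also read. SNHG1 was higher by 0.51, 0.82 and 0.69 on the log2 CPM scale in pairs A, B and C, and SNHG15 by 0.28, 0.41 and 0.18. SNHG3 differed by -1.09, -0.69 and -0.78, and SNHG8 by -0.27, -0.24 and -0.36. SNHG3 therefore had its largest difference in pair A, the pair in which SNHG1 had its smallest. SNHG6 and GAS5 were higher in 3 of 3 pairs and SNHG5 and SNHG12 lower in 3 of 3, with GAS5 differing by no more than 0.03. SNHG7 was higher in 1 pair and lower in 2, and SNHG16 higher in 2 and lower in 1. With the pair as a block, 2 hosts were higher and 2 lower, beside 19.5% and 17.8% of all genes tested. The SE of that fit is pooled across genes and does not follow a host's own differences. It was 0.0723 for SNHG16, whose 3 differences had an SD of 0.235, and 0.0653 for GAS5, where that SD was 0.00855. None of the other 6 hosts passed with the block (edgeR adjusted p between 0.135 and 0.845).

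**Figure D3:**
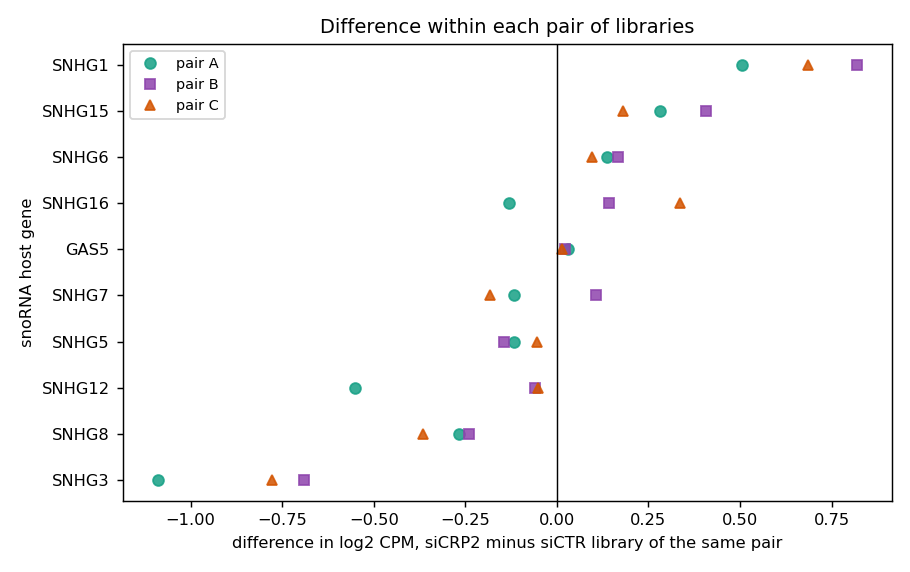
Difference in log2 CPM between the siCRP2 and the siCTR library of the same pair for each snoRNA host gene, with 1 point per pair. The 3 points of SNHG1 (0.51 to 0.82) lie right of 0 and those of SNHG3 (-1.09 to -0.69) left of it, while the points of SNHG7 and SNHG16 lie on both sides.

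Levels of different hosts can be set side by side only per length, here as CPM per kilobase of merged annotated exons. In siCTR libraries GAS5 stood highest (20.3 ± 1.24 CPM per kilobase), followed by SNHG1 (13.3), SNHG6 (12.8), SNHG16 (9.10), SNHG5 (8.57), SNHG3 (7.10), SNHG7 (5.39), SNHG8 (4.29), SNHG15 (4.19) and SNHG12 (2.60 ± 0.382). The libraries of 3 neighbouring pairs in this order overlapped, SNHG1 with SNHG6, SNHG16 with SNHG5, and SNHG8 with SNHG15. In siCRP2 libraries SNHG1 (21.1 ± 1.499) took the first place beside GAS5 (20.6 ± 1.14), and SNHG3 (3.96 ± 0.713) moved from place 6 to place 8. The order rests on the length used. With the length of the canonical transcript in its place, GAS5 stayed first in siCTR libraries, SNHG16 moved from place 4 to 2 and SNHG1 from 2 to 4. By that length SNHG1 also stood at place 4 in siCRP2 libraries (72.2 CPM per kilobase, against 132 for GAS5 at place 1), and SNHG3 moved from place 6 to 7.

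Some hosts share their start or their exons with another gene, and the table held 19 such neighbours, 14 of them tested. RCC1, which encodes the exchange factor of the GTPase Ran, starts 37 bases from SNHG3 on the same strand by GENCODE and shares 242 exon bases with it. Its start is the one that RefSeq gives for SNHG3. RCC1 had 74.5 ± 6.43 CPM in siCRP2 libraries and 77.2 ± 1.49 CPM in siCTR libraries, a log2 fold change of -0.05 with an interval of -0.24 to 0.14 (edgeR adjusted p = 0.733). This interval does not reach that of SNHG3 (-1.12 to -0.55). The ratio of SNHG3 to RCC1 counts was 0.217 ± 0.0297 in siCRP2 libraries and 0.375 ± 0.0302 in siCTR libraries, without overlap (two-sided exact permutation test, p = 0.1, the smallest that 3 against 3 allows).

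SLC3A2, which encodes the heavy chain of a large amino acid transporter, starts 51 bases from SNHG1 on the opposite strand and shares no exon with it. It had 183, 173 and 223 CPM in siCRP2 libraries and 134, 138 and 203 CPM in siCTR libraries, with overlap between the groups. Its log2 fold change was 0.29 with an interval of -0.14 to 0.72 (edgeR adjusted p = 0.324), and with the libraries paired 0.31 with an interval of 0.18 to 0.43 (edgeR adjusted p = 7.27e-06). The ratio of SNHG1 to SLC3A2 counts was 0.442, 0.462 and 0.407 in siCRP2 libraries and 0.425, 0.329 and 0.278 in siCTR libraries, higher in siCRP2 in each of the 3 pairs but with overlap between the groups. The means were 0.437 ± 0.0277 and 0.344 ± 0.0742 (two-sided exact permutation test without pairs, p = 0.2, in a design that cannot go below 0.1). SNHG1 and its neighbour across the start thus were both higher in the siCRP2 library of each pair.

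At GAS5, ZBTB37 starts 800 bases away on the opposite strand, with 17.7 ± 2.79 CPM against 12.7 ± 2.39 CPM (log2 fold change 0.47, edgeR adjusted p = 0.0359). It was the 1 neighbour of the 14 tested that passed without pairing, where 12.5% of all genes tested were higher and 11.5% lower. With pairing, 3 of the 14 passed, beside 19.5% higher and 17.8% lower of all genes tested. They were ZBTB37 and SLC3A2 (higher) and ST6GALNAC1 (lower), a gene inside the long annotated span of SNHG16 that averaged at most 0.310 CPM in a group. Among neighbours of at least 5 CPM, TRNAU1AP at SNHG12 (-0.04) and DIPK1B at SNHG7 (0.12) had small log2 fold changes, and neither passed (edgeR adjusted p = 0.872 and 0.705). Exons of 10 neighbours overlap those of a host. The longest overlap, 2487 bases, lies between SNHG8 and PRSS12 on the opposite strand, and PRSS12 averaged 3.20 CPM in siCRP2 and 4.12 CPM in siCTR libraries. The strand setting of the count is not given in the sources used here, so reads of such exons may have been assigned to either gene or to none. Where exons are shared on the same strand, as by SNHG3 and RCC1, no strand setting would separate the reads, and both counts and their ratio carry this limit.

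**Figure D4:**
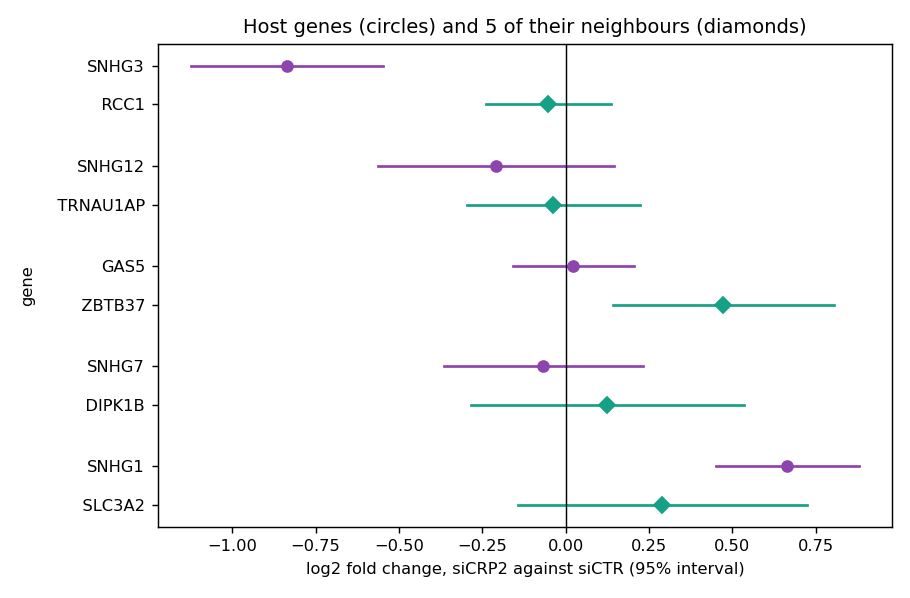
Log2 fold change with its 95% interval for host genes (circles) and 5 of their neighbours (diamonds), siCRP2 against siCTR. RCC1 lies at -0.05 beside SNHG3 at -0.84, and SLC3A2 at 0.29 beside SNHG1 at 0.67.

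The snoRNAs themselves are shown next, since they are the products that these genes are known for. The libraries were made from polyadenylated RNA with reads of 75 bases, and the count table lists 25 snoRNA rows inside 9 of the hosts on their strand: 7 in SNHG1, 5 in SNHG12, 4 in SNHG7, 3 in SNHG16, 2 in SNHG3 and 1 each in SNHG5, SNHG6, SNHG8 and SNHG15. The snoRNAs of GAS5 were not analysed here.

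SNORD25, SNORD27 and SNORD30 represent the guides in the introns of SNHG1, SNORA73B lies in SNHG3, and SNORD99 lies in SNHG12. The sequences follow GENCODE 44 on GRCh38, at chr11:62855564-62855632, chr11:62855012-62855083 and chr11:62853663-62853732 (minus strand), chr1:28508559-28508762 (plus strand) and chr1:28578749-28578822 (minus strand). Capitals mark TGATGA (box C) near the 5' end and CTGA (box D) near the 3' end of the C/D snoRNAs, and the last ACA of SNORA73B. In SNORD99 only box D was found with these letters.
SNORD25: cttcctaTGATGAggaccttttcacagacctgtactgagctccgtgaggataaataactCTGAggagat
SNORD27: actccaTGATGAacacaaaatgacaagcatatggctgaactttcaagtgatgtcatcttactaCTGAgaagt
SNORD30: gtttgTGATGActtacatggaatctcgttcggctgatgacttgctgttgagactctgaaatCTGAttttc
SNORA73B: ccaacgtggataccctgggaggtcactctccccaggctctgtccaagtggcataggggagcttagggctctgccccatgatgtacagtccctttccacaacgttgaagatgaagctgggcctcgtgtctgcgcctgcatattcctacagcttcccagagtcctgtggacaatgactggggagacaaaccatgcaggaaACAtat
SNORD99: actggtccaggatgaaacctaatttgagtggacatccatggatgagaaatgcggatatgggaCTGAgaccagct
SNORA73B had 5, 12 and 5 counts in siCRP2 libraries and 6, 2 and 5 counts in siCTR libraries (log2 fold change 0.54, edgeR adjusted p = 0.596). SNORD99 had 5, 10 and 12 counts against 14, 7 and 1 (0.02, edgeR adjusted p = 0.986). SNORD30 had 1 count in all 6 libraries, and SNORD25 and SNORD27 had 0. At such counts a difference in the snoRNAs was not detectable.

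Over the 25 rows there were 89 counts in all, against 1529 to 3546 counts of SNHG1 alone in a single siCRP2 library. Of the 22 snoRNA rows that overlap an exon of some annotated transcript of their host, 1 had a count in any library. Some of these rows cover almost the same bases, as for SNORA16A and SNORA17B, so they are not all separate snoRNAs. All 3 rows that overlap no such exon, SNORA73B, SNORD99 and SNORD1B, had counts. Over every gene with a snoRNA inside, 26 of 227 snoRNA rows that overlap a host exon (11.5%) and 115 of 347 that do not (33.1%) had a count. The part of read assignment in these zeros was not tested.

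The mRNAs of the proteins that bind snoRNAs were mostly higher in siCRP2 libraries. The lists used here were chosen with earlier results of these data known. For the mRNAs of the 8 core proteins the median log2 fold change was 0.31, beside -0.02 for all genes and -0.02 for the hosts. Of these 8, 5 rose and 0 fell (62.5% and 0%), beside 12.5% and 11.5% of all genes tested. They were FBL, the methyltransferase of box C/D particles (0.59), NOP58 (0.45) of the same particles, SNU13 (0.34), which binds the fold made by boxes C and D, and GAR1 (0.53) and NOP10 (0.29) of the H/ACA particles (edgeR adjusted p between 0.000161 and 0.0465). NHP2 (0.24), NOP56 (0.05) and DKC1, the pseudouridine synthase (-0.04), did not pass, and NHP2 passed with pairing (edgeR adjusted p = 0.00425). Of the mRNAs of the 10 factors that assemble these particles, 7 rose and 0 fell (70% and 0%, median 0.40). Among the risers were NUFIP1 (0.83), NOPCHAP1 (0.68), SHQ1 (0.51) and ZNHIT6 (0.49). The 3 that did not pass, PIH1D1, RUVBL1 and RUVBL2, lay between -0.07 and 0.02. SNHG3 thus stood lower in the same libraries in which these proteins' mRNAs and SNHG1 stood higher.

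Of 18 further long non-coding hosts tested, 2 rose and 1 fell (3 and 4 with pairing). These shares, 11.1% and 5.56%, are near or below the 12.5% and 11.5% of all genes. SNHG17 had 24.9, 21.1 and 33.2 CPM against 14.4, 11.1 and 16.3 CPM (log2 fold change 0.92, edgeR adjusted p = 0.00301). SNHG11 rose by 0.57 (edgeR adjusted p = 0.0317), and SNHG18 had 2.96, 4.93 and 4.63 CPM against 8.93, 11.6 and 12.4 CPM (-1.38, edgeR adjusted p = 7.55e-05). SNHG25, the next by p, differed by -0.74 (edgeR adjusted p = 0.0932, and 0.0151 with pairing). Among 218 protein-coding genes tested whose span holds a snoRNA on the same strand, 62 rose and 21 fell (28.4% and 9.63%, and 84 and 39 with pairing), with a median of 0.12. Those with the smallest p were ZBED3 (-2.01), N4BP2 (1.20), ODC1, the rate-limiting enzyme of polyamine synthesis (0.81), and CAMK1D (-1.12), at edgeR adjusted p between 3.6e-08 and 1.29e-05.

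The factors of nonsense-mediated decay, the pathway known to degrade many spliced host RNAs, were called about as often as all genes tested, of any level, without pairing. Of 13 factors, 2 rose and 2 fell, 15.4% each way beside 12.5% and 11.5% of all genes (6 and 3 with pairing, where 19.5% and 17.8% of all genes passed). UPF3B (0.62) and UPF2 (0.24) were higher, and DHX34 (-1.02) was the one with the smallest p among the lower (edgeR adjusted p between 3.78e-05 and 0.0484). Of the 5 exon junction complex genes, which mark spliced RNA for this pathway, MAGOHB (0.78), EIF4A3 (0.40) and CASC3 (0.27) rose, RBM8A fell by 0.48 on the log2 scale, and MAGOH (0.27) did not pass, although it did with pairing (edgeR adjusted p = 0.00224). Of 9 mRNAs known as targets of the pathway, 3 rose and 1 fell (4 and 2 with pairing). GADD45A (0.80), ATF3 (1.27) and GADD45B (0.51) are stress-induced genes, and ARFRP1, a small GTPase (-0.38), was the one that fell. The 8 hosts that did not pass without pairing lay between -0.29 (SNHG8) and 0.28 (SNHG15).

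Of 19 mRNAs other than those of ribosomal proteins that carry a 5' TOP motif, 4 rose and 1 fell (21.1% and 5.26%). Among all genes tested, 12.5% rose and 11.5% fell. With pairing 8 of the 19 rose and 1 fell, where 19.5% and 17.8% of all genes passed. The median of the 19 without pairing was 0.12. PABPC1, the poly(A)-binding protein (0.41), BTF3 (0.33) and EIF3H (0.26) were the risers with the smallest p, and EIF2S3, a subunit of the initiation factor that brings the first tRNA, fell by 1.18 on the log2 scale (edgeR adjusted p = 8.3e-08). Of 14 regulators of 5' TOP mRNAs, 5 rose and 3 fell (35.7% and 21.4%, and 7 and 5 genes with pairing). RPTOR (-0.72) and MTOR (-0.48), both of the mTOR complex that controls translation of 5' TOP mRNAs, were lower, and EIF4EBP2 (0.54), a translation repressor that mTOR inactivates, and SSB (0.40), the La protein, were higher (edgeR adjusted p between 0.000112 and 0.00218). Among the 7 hosts with a run of at least 6 pyrimidines at the RefSeq start, 1 rose, 1 fell and 5 did not pass, so hosts with such a RefSeq start were found on both sides. For SNHG3, the host that fell, this is also the GENCODE start of RCC1.

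**Figure D5:**
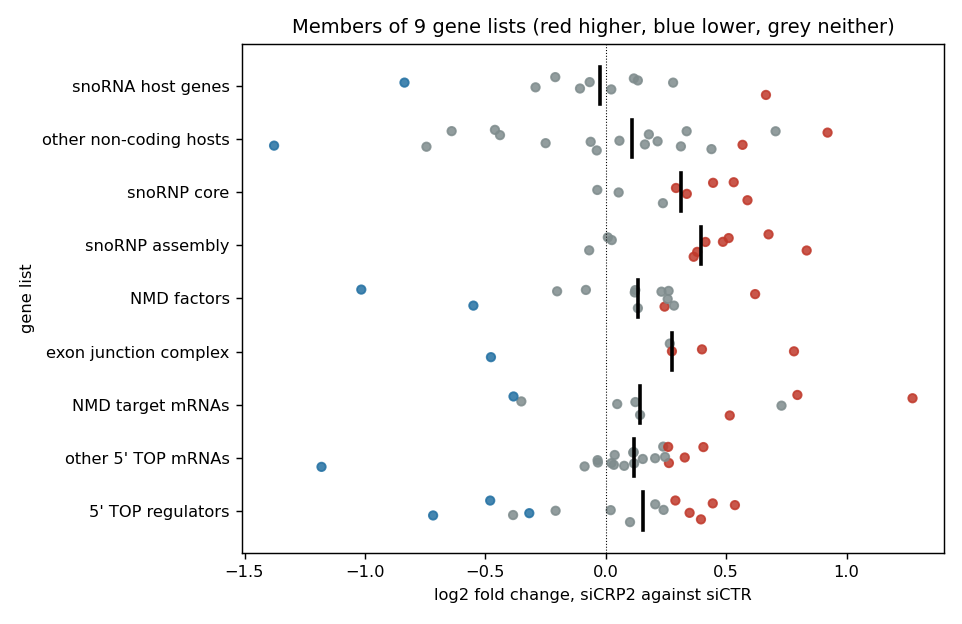
Log2 fold change of each tested gene of 9 lists, siCRP2 against siCTR, with 1 point per gene (red higher, blue lower, grey neither, by the edgeR test without pairing) and a black bar at the median of the list. The hosts spread around a median of -0.02 with 1 red and 1 blue point, and the core and assembly factors of snoRNA particles lie mostly right of 0, with medians of 0.31 and 0.40.

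The mean standardised log2 CPM of the 10 hosts was lowest in the siCRP2 library of pair A (-0.55) and highest in the siCRP2 library of pair C (0.41), and in siCTR libraries it lay between -0.19 (pair A) and 0.33 (pair C). Among 10803 other genes of at least 5 CPM, those whose profile over the 6 libraries was most like that mean were MECOM (Pearson r = 0.981), APRT (0.979), STK10 (0.978), NPLOC4 (0.964) and ZNF232 (0.959). These values are a description over 6 libraries that share their pairs, and the log2 fold changes of these 5 genes lay between -0.02 and 0.02.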

How the data were processed

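Polyadenylated RNA of 6 libraries was sequenced by the authors in pairs of 75-base reads, aligned with STAR and counted per gene. The deposited values are raw counts, with 0 other value columns, and an unnamed text column with 4 gene names was not used. Builds named in the submitters' processing notes are GRCh38 and hg38. Not given in the sources used here were the version of STAR, its annotation and whether counting used strand. Columns were assigned to groups by name, and their codes, which define pairs A to C, match no replicate number of the labels.

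A gene was tested if 2 or more of a group's 3 libraries had a count (23806 of 58395). The test was the robust quasi-likelihood test of edgeR 4.0.16 (R 4.3.3) with TMM scaling and Benjamini-Hochberg adjustment, with calls at adjusted p under 0.05. TMM factors lay between 0.989 and 1.03. The study's exact test was an alternative, with DESeq2 1.42.0, other filters and scalings, the pair as a block, and each library left out. log2 CPM used a prior count of 2. The edgeR test without pairing was tried on simulated counts that had no pair effect and larger changes than those of the hosts. The other steps, among them the paired fit, were not tried on simulated data.

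Deviations from the group means correlated within each pair (r between 0.459 and 0.744 over 10827 genes of at least 5 CPM), so the codes were taken to pair the libraries. Between libraries of other pairs r was -0.674 to 0.114. Deviations from a group mean cancel within the group, so this lower range follows in part from the first and is no separate support.

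Symbols, exons and snoRNAs came from GENCODE 44 (57754 genes matched) and promoters from RefSeq (8 hosts matched, not SNHG6 or SNHG15). Neighbours overlap a host or start within 2000 bases of its start. Named genes are the hosts, CSRP2, up to 4 genes of smallest p per list (lists of 8 or fewer in full), neighbours of highest CPM and the 5 genes most like the hosts. PRSS12, ST6GALNAC1, genes that did not pass in the assembly list and the markers were named beside these. Some genes that the rule names are not reported here. Hosts and the 13 lists were chosen with earlier results of these data known.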

Additional observations from a re-analysis of the deposited data

How the results depend on the processing

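SNHG1 and SNHG3 passed under all 13 alternatives, with log2 fold changes of 0.57 to 0.72 and -0.98 to -0.71. With the pair as a replicate block, 2 hosts were higher and 2 lower, and over all genes 4644 were higher and 4229 lower (2987 and 2735 without the block). The block changed the call of SNHG8 and SNHG15 and of no other host. DESeq2 and the filterByExpr filter each gave 2 lower hosts, SNHG8 being the second (-0.31, DESeq2 adjusted p = 0.0385, and -0.34, edgeR adjusted p = 0.0246), and the cause was not tested. With each library left out in turn, 1 to 2 hosts were higher and 1 to 2 lower, the median of the hosts ran from -0.08 to 0.05, and 1933 to 3128 genes were higher and 2048 to 2888 lower. The lowest of these, 1933, came without the siCRP2 library of pair C, the deepest, and that fit has fewer samples. GAS5, whose log2 fold change was 0.02, turned to -0.0245 with filterByExpr, and with 1 library left out it ran from -0.0410 to 0.0675, below 0 without the siCRP2 library of pair B (-0.00698) or C or the siCTR library of pair A (-0.0214). SNHG7 ran from -0.182 to 0.0962 with 1 library left out, turning above 0 without the siCRP2 library of pair A (0.0251) or the siCTR library of pair C. Over the same fits SNHG12 ran from -0.41 (without the siCRP2 library of pair C) to -0.12 (siCRP2, pair A), SNHG5 from -0.20 (siCRP2, pair B) to -0.027 (siCTR, pair B), SNHG16 from 0.014 (siCRP2, pair B) to 0.19 (siCRP2, pair A), SNHG15 from 0.15 to 0.44, SNHG8 from -0.35 to -0.24 and SNHG6 from 0.097 to 0.14. No scaling moved the median of all genes by over 0.05 on the log2 scale. The snoRNA rows, with 89 counts in all, were out of reach, and the part of depth in this was not tested. Depth limits SNHG12, with 154 to 455 counts a library, more than the other hosts.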

Other observations

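The heptamer GCCTCAC had been picked earlier from these same fold changes as a sequence more frequent in transcripts of genes that were lower. It was looked up in the host genes as a description. Among the 10 canonical host transcripts it was present in SNHG7, beside 18.4% of 23589 canonical transcripts of the genes tested. SNHG3, the host that fell, held it in 0 of 3 annotated transcripts, and SNHG1, the host that rose, in 0 of 80. GAS5 held it in 75 of 91 annotated transcripts but not in the canonical one, and SNHG16 in 1 of 18.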
